A study of Mus musculus with 17 samples.

Results

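The genes described are the ligands, receptors and latency proteins of transforming growth factor beta (TGF-beta) in mouse lung after focal irradiation. They were taken by symbol from the table of read counts, and they are the ligand genes Tgfb1, Tgfb2, Tgfb3 and Inhba, the latency genes Ltbp1 and Ltbp2, the receptor genes Tgfbr1, Tgfbr2 and Tgfbr3, and Tgfbi, whose protein is laid down in the matrix. All 10 were found among the 45777 genes of the table, and all 10 passed the filter on low counts that left 22052 genes for testing. Male wild-type C57BL/6 mice, bought at 6 weeks of age and kept for 1 week before the procedure, received 65 Gy or 75 Gy to the left lung in a single fraction from an image-guided irradiator, and RNA was taken after 2 weeks (the inflammation stage) or 6 weeks (the fibrosis stage). Non-irradiated mice of the same strain and week were the controls, with 1 control group at each week that both doses share. There were 3 libraries in each of the 6 groups except 65 Gy at 6 weeks, which has 2, and each library carries its own number, 3126 to 3128 for controls, 3129 to 3131 for 65 Gy and 3132 to 3134 for 75 Gy at 2 weeks, and 3135 to 3137 for controls, 3138 and 3140 for 65 Gy and 3141 to 3143 for 75 Gy at 6 weeks. RNA of irradiated lung came from the lesion, so that a small target receiving a very high dose is what these groups model. The labels do not tie libraries to separate mice, and the p-values given here measure the spread between libraries.

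TGF-beta is secreted as an inactive complex in which the mature ligand is held by its own propeptide, and the propeptide is bound to a latent TGF-beta binding protein in the matrix. Integrins and proteases release the ligand, which binds the type II receptor (Tgfbr2), and the type II receptor then activates the type I receptor (Tgfbr1), with the co-receptor betaglycan (Tgfbr3) presenting the ligand. Activated receptors phosphorylate SMAD transcription factors, which switch on matrix genes, and the pathway is well known for its part in lung fibrosis. Activin A, the dimer of the product of Inhba, belongs to the same superfamily and signals through its own receptors to the same SMADs.

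Windows of 250 bases that end at a RefSeq transcript start of GRCm38.p6 were found for 8 of the 10 genes, 10 windows in all. Those of Inhba and Tgfb1 are shown because the first of these ligand genes passed the limits given below in every irradiated group and the second in none. Those of Tgfbr1 and Tgfbr2 are shown because the first of these partner receptors was higher after irradiation by the adjusted p and the second was not. Capitals mark the TATA motif TATAAA or the SMAD motif CAGAC, searched on both strands.
Inhba, chr13:16011601-16011850, plus strand: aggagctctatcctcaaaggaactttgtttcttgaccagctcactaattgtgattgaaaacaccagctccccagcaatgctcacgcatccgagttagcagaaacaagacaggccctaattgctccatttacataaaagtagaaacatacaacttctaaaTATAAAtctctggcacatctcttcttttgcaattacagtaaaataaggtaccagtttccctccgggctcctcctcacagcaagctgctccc
Tgfb1, chr7:25686752-25687001, plus strand: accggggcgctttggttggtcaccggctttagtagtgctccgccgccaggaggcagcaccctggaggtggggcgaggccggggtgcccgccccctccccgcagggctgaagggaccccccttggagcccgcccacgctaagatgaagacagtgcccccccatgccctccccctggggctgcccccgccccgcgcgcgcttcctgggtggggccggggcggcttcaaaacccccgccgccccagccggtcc
Tgfbr1, chr4:47352972-47353221, plus strand: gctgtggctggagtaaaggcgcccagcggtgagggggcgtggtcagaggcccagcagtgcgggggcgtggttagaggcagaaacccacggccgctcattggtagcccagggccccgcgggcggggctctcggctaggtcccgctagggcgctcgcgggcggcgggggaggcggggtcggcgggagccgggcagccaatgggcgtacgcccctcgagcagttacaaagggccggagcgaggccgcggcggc
Tgfbr2, chr9:116175364-116175613, minus strand: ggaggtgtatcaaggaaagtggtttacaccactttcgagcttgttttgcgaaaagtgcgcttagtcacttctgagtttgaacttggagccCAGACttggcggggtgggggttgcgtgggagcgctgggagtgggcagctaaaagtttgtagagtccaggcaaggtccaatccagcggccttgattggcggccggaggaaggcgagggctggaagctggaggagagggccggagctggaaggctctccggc
The window of Inhba held 43.2% G and C, with a TATAAA 91 bases before the start. It lies inside the annotated gene, whose earliest start is further upstream. The window of Tgfb1 held 75.2% G and C and neither motif. TATAAA was found in 12.4% of all 32851 windows of this length and in 2 of the 10 here, those of Inhba and Tgfb2. CAGAC was found in 42.2% of all windows and in 7 of the 10. Among these is a second window of Tgfbr1 that is not shown, chr4:47385966-47386215, with a CAGAC 203 bases before the start. The AP-1 motif TGACTCA, present in 4.46% of all windows, was in 0 of the 10. Such matches are a description of letters and say nothing of whether a factor binds there.

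Between 46764569 and 66797879 reads were counted on genes per library, with a median of 57608149, and the member with the lowest level, Inhba, had at least 48 counts in each. Levels are given in CPM, counts scaled to a common library size with TMM factors. Lung markers were present throughout, with Sftpc of alveolar type 2 cells between 8368 and 18730 CPM and Ager of type 1 cells between 1160 and 2126 CPM, while Myh6 of heart muscle and lung vein muscle lay between 31.0 and 363 CPM. A single 75 Gy library of 2 weeks, 3134, stood apart in most of the genes below, and the fold changes that it moved most are also given without it. In these bulk samples, fewer cells of a type and less RNA per cell cannot be told apart.

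After irradiation, the response of these genes was uneven. By the limits given next, Inhba was higher in every irradiated group, Tgfbi higher at the inflammation stage and Tgfbr3 lower at 75 Gy. By the adjusted p alone, Tgfbr3 was also lower after 65 Gy, and Tgfbi higher at 75 Gy and 6 weeks. No difference between the doses or the stages was shown for Tgfbi or Tgfbr3. The 3 TGF-beta ligand genes and Tgfbr2 did not pass the test in any comparison with controls. Genes were called when the Benjamini-Hochberg adjusted p of edgeR's quasi-likelihood test was at most 0.05 and the absolute log2 fold change at least 1. At 75 Gy and 2 weeks, 3 of the 10 were called, against 7.74% of all genes tested. Of these, 2 were higher (5.67% of all genes) and 1 lower (2.07%). At 75 Gy and 6 weeks, 2 were called, against 10.4% of all genes, with 1 higher (7.28% of all genes) and 1 lower (3.13%). After 65 Gy and 2 weeks, 2 were called, against 4.35% of all genes, both higher (3.47%) and 0 lower (0.88%). After 65 Gy and 6 weeks, 1 was called, against 5.28% of all genes, and it was higher (4.34%) with 0 lower (0.943%). With the adjusted p alone, the numbers were 5, 6, 4 and 4 of 10 in that order, against 22.3%, 36%, 11% and 14.7% of all genes. The mean effect of irradiation, the average of the 4 log2 fold changes, was called for 2 of the 10 (Inhba and Tgfbi) against 8.48% of all genes, both higher (6.85%) and 0 lower (1.64%), and 6 of the 10 passed the adjusted p alone against 41.6%. Libraries of irradiated and control lung did not overlap for 5 and 8 of the 10 genes at 75 Gy (2 and 6 weeks), against 30.2% and 57.1% of all genes, and for 6 and 8 at 65 Gy, against 29.4% and 56.3%.

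**Figure D1:**
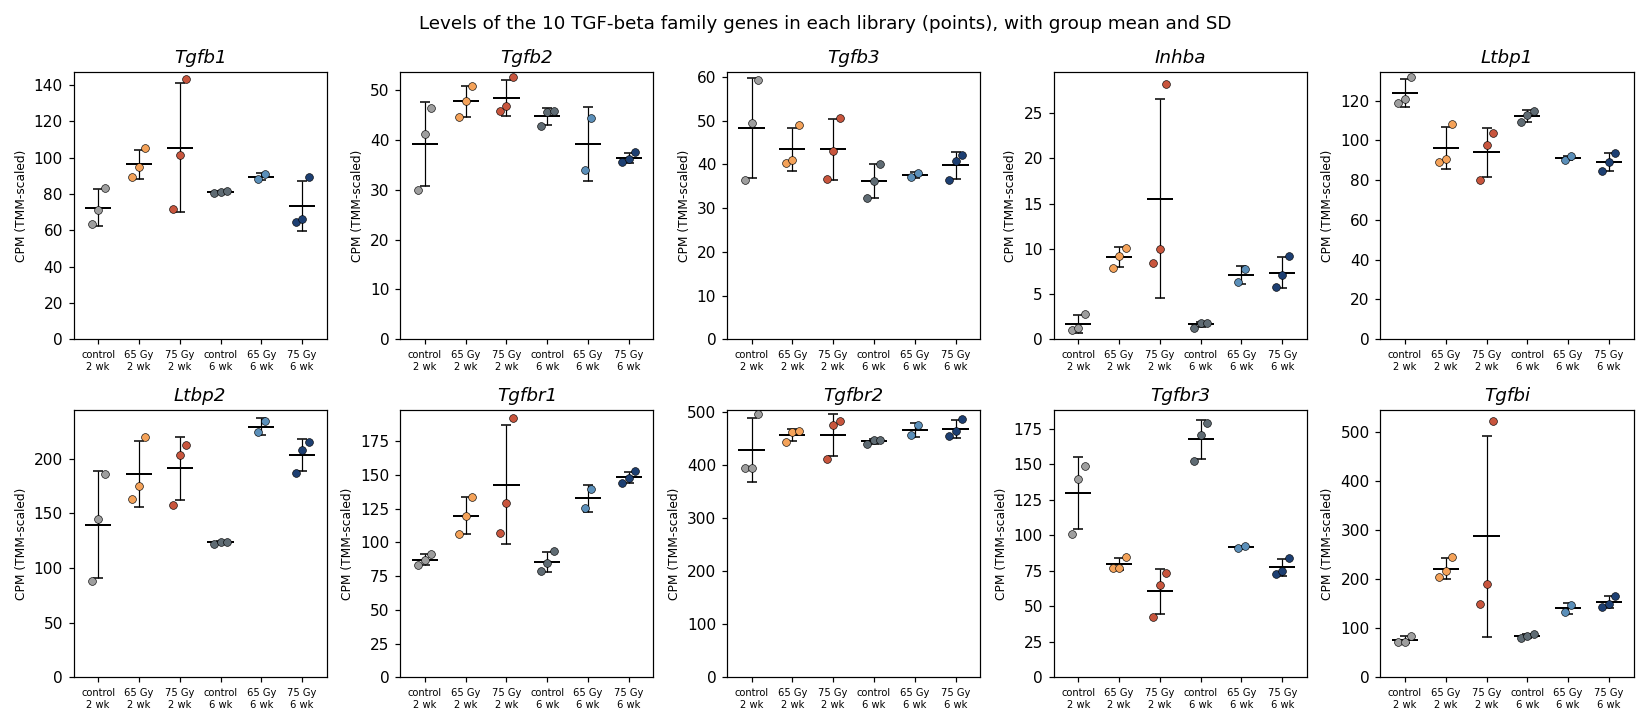
Levels of the 10 genes in CPM (vertical axis, from 0) in each of the 17 libraries, by group; points are libraries, horizontal lines group means and vertical bars SD. The irradiated libraries of Inhba sit between 5.82 and 28.2 CPM, all above the controls, those of Tgfbr3 all sit below the controls, and Tgfbr2 stays between 394 and 498 CPM in every group.

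Among the ligand genes, Inhba (chr13:16004256-16031609), which encodes the beta A subunit of activin A and of inhibin A, showed the largest change of the 10. In controls it was low, at 0.974, 2.76 and 1.26 CPM in the 3 libraries of 2 weeks and 1.82, 1.28 and 1.80 CPM in those of 6 weeks. At 2 weeks it reached 7.86, 10.1 and 9.26 CPM after 65 Gy and 8.39, 10.02 and 28.2 CPM after 75 Gy. At 6 weeks the levels were 6.35 and 7.77 CPM after 65 Gy and 5.82, 7.13 and 9.18 CPM after 75 Gy. Every irradiated library lay above every control, and library 3134, at 28.2 CPM, lay far above the other 10 irradiated libraries. Inhba rose 9.35-fold at 75 Gy and 2 weeks (log2 fold change 3.23, SE 0.45, adjusted p = 0.000203) and 5.47-fold at 65 Gy and 2 weeks (2.45, SE 0.44, adjusted p = 0.00236). By the fibrosis stage it was 4.51-fold higher after 75 Gy (2.17, SE 0.43, adjusted p = 0.00146) and 4.31-fold higher after 65 Gy (2.11, SE 0.46, adjusted p = 0.00784). Without library 3134 the log2 fold change at 75 Gy and 2 weeks was 2.47 with an adjusted p of 0.000169. At 65 Gy and 6 weeks the call was lost when library 3140 was left out, with a log2 fold change of 1.97 and an adjusted p of 0.0532.

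Tgfb1 (chr7:25687002-25705077), the TGF-beta isoform of immune cells and the one most studied in fibrosis, did not pass the test at either week. Its levels at 2 weeks were 63.3, 71.1 and 83.3 CPM in controls, 105, 94.7 and 89.6 CPM after 65 Gy and 72.02, 102 and 143 CPM after 75 Gy. All libraries of 65 Gy lay above the controls, while the 75 Gy libraries spread from a control-like level to the highest of all in library 3134. The log2 fold changes were 0.41 (SE 0.19, adjusted p = 0.187) at 65 Gy and 0.54 (SE 0.19, adjusted p = 0.0528) at 75 Gy, the latter with a 95% interval of 0.14 to 0.95. Without library 3134 the value at 75 Gy was 0.26 (adjusted p = 0.305), and without library 3132, the lowest of that group, it was 0.75 (adjusted p = 0.00365). At 6 weeks Tgfb1 was at 81.6, 80.4 and 81.2 CPM in controls, 90.9 and 88.1 CPM after 65 Gy and 89.2, 64.3 and 66.2 CPM after 75 Gy. The fold changes at this stage were close to 0, at 0.14 (SE 0.21, adjusted p = 0.704) and -0.15 (SE 0.19, adjusted p = 0.578).

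Tgfb2 (chr1:186622787-186709697), an isoform known for its roles in epithelial and mesenchymal development, did not pass the test either, and the signs of its fold changes were opposite at the 2 stages. At 2 weeks it was at 29.96, 41.2 and 46.4 CPM in controls, 44.5, 47.9 and 50.7 CPM after 65 Gy and 46.8, 52.5 and 45.7 CPM after 75 Gy. At 6 weeks the levels were 42.8, 45.8 and 45.5 CPM, 33.9 and 44.3 CPM and 35.5, 37.5 and 36.2 CPM. The irradiated libraries overlapped with controls at 2 weeks, and at 6 weeks all 3 libraries of 75 Gy were below the controls. The log2 fold change at 75 Gy was 0.30 (SE 0.13, adjusted p = 0.119) at 2 weeks and -0.30 (SE 0.13, adjusted p = 0.0958) at 6 weeks, and at 65 Gy it was 0.28 (SE 0.13, adjusted p = 0.2) and -0.19 (SE 0.15, adjusted p = 0.431). Without control 3128 the value at 75 Gy and 2 weeks was 0.44 (adjusted p = 0.0381), and without control 3126 it was 0.15 (adjusted p = 0.32), with 0.13 (adjusted p = 0.495) at 65 Gy. Tgfb3 (chr12:86056743-86079041), the third isoform, ranged from 32.4 to 59.3 CPM in the 6 controls and from 36.3 to 50.6 CPM in the 11 irradiated libraries, wholly within the range of the controls of both weeks joined. Against controls of 6 weeks alone (32.4 to 40.1 CPM), 75 Gy libraries 3141 and 3142 were higher, at 42.2 and 40.9 CPM. The mean effect of Tgfb3 was -0.031 on the log2 scale (SE 0.10, adjusted p = 0.828, 95% interval -0.24 to 0.18), and that of Tgfb2 was 0.024 (SE 0.08, adjusted p = 0.845, 95% interval -0.15 to 0.20).

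Levels of different genes were compared as CPM per kilobase of annotated exon. Tgfb1 was the main ligand transcript of the 3 isoforms in every library, at 29.1 to 65.8 CPM per kilobase over all groups. Tgfb3 followed at 9.57 to 17.5 and Tgfb2 at 5.76 to 10.1 CPM per kilobase. Of the summed level of the isoforms, Tgfb1 took 60.7 ± 2.65% (SD, n = 3) in controls of 2 weeks and 65.9 ± 1.76% (n = 3) in those of 6 weeks. After 65 Gy the share was 66.8 ± 1.12% at 2 weeks (n = 3) and 68.8 ± 2.31% at 6 weeks (n = 2), and after 75 Gy it was 67.5 ± 8.61% and 63.9 ± 3.78% (n = 3 each). Inhba, at 0.152 to 0.432 CPM per kilobase in controls and up to 4.41 after irradiation, stayed below each of the 3 isoforms in all 17 libraries. Some exon bases of Tgfb2 and Tgfb3 are shared with transcripts annotated on the other strand (2.38% of Tgfb2, at most 7.6% of Tgfb3 for a single partner), and whether counting used strand is not given in the sources used here.

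Of the latency genes, Ltbp1 was lower and, at 6 weeks, Ltbp2 higher after irradiation by the adjusted p, both by less than the fold limit. Ltbp1 (chr17:75005480-75392512) encodes a binding protein that tethers latent TGF-beta to the matrix. It was at 119, 121 and 132 CPM in controls of 2 weeks, 108.2, 90.8 and 89.3 CPM after 65 Gy and 104, 97.9 and 80.2 CPM after 75 Gy. The levels of 6 weeks were 109, 113 and 115 CPM, 90.4 and 91.9 CPM and 84.6, 93.6 and 89.1 CPM. No irradiated library reached the lowest control of its own week. The log2 fold change was -0.37 (SE 0.10, adjusted p = 0.0278) and -0.40 (SE 0.10, adjusted p = 0.00957) at 2 weeks, and -0.30 (SE 0.11, adjusted p = 0.0828) and -0.33 (SE 0.10, adjusted p = 0.0162) at 6 weeks, for 65 Gy and 75 Gy. Ltbp1 passed the adjusted p alone in 3 of these 4 comparisons. That of 65 Gy at 2 weeks was lost without any 1 of libraries 3127, 3128, 3130 and 3131 (adjusted p of 0.0576 to 0.113), and that of 75 Gy at 6 weeks without any 1 of 3137, 3141 and 3143 (0.0518 to 0.0617).

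Ltbp2 (chr12:84783212-84876558) belongs to the same family, but its protein does not bind latent TGF-beta and serves in elastic fibre and microfibril assembly. Its controls of 2 weeks were widely spread, at 88.4, 145 and 186 CPM, against 219.5, 163 and 175 CPM after 65 Gy and 158, 212 and 203 CPM after 75 Gy. Those groups overlapped, and neither fold change of 2 weeks passed the adjusted p (0.41, SE 0.20, adjusted p = 0.206 for 65 Gy and 0.45, SE 0.20, adjusted p = 0.115 for 75 Gy). At 6 weeks the controls were tight, at 122, 124 and 124 CPM, and the irradiated libraries were all higher, at 224 and 235 CPM after 65 Gy and 215, 208 and 187 CPM after 75 Gy. The log2 fold change of 6 weeks was 0.89 at 65 Gy (SE 0.22, adjusted p = 0.0136) and 0.72 at 75 Gy (SE 0.20, adjusted p = 0.0109), past the adjusted p and short of the fold limit. Without control 3128 the changes of 2 weeks passed as well, at 0.67 (adjusted p = 0.0414) and 0.71 (adjusted p = 0.0179), whereas without control 3126 they were 0.17 (adjusted p = 0.487) and 0.22 (adjusted p = 0.293). Without 3138 or 3140 the change at 65 Gy and 6 weeks did not pass (0.0643 and 0.0722). An antisense transcript overlaps 11.3% of the exon length of Ltbp2.

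The receptor genes split 3 ways. Tgfbr1 was higher, Tgfbr2 differed little and Tgfbr3 was lower. Tgfbr2 (chr9:116087695-116175363), the ligand-binding type II receptor, lay between 394 and 498 CPM in controls and between 412 and 488 CPM in irradiated lung. Its 4 log2 fold changes were 0.092, 0.093, 0.069 and 0.075 (65 Gy and 75 Gy at 2 weeks, then at 6 weeks), with adjusted p from 0.528 to 0.718. The mean effect was 0.082 with a 95% interval of -0.045 to 0.21. Per kilobase, Tgfbr2 was the highest of the 10 genes in all 6 controls, at 48.2 to 60.8 CPM.

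Tgfbr1 (chr4:47353222-47414926), the type I receptor kinase that carries the signal to SMADs, was at 83.3, 86.9 and 91.3 CPM in controls of 2 weeks, 106, 133 and 119.6 CPM after 65 Gy and 107, 129 and 192 CPM after 75 Gy. At 6 weeks it was at 93.6, 84.6 and 78.9 CPM in controls, 125 and 139.9 CPM after 65 Gy and 144, 153 and 148 CPM after 75 Gy. Every irradiated library exceeded every control of either week. The log2 fold change was 0.71 (SE 0.16, adjusted p = 0.00496) at 75 Gy and 2 weeks, 0.79 (SE 0.16, adjusted p = 0.00157) at 75 Gy and 6 weeks and 0.63 (SE 0.17, adjusted p = 0.0261) at 65 Gy and 6 weeks. At 65 Gy and 2 weeks it was 0.46 (SE 0.16, adjusted p = 0.0759). The value at 75 Gy and 2 weeks without library 3134 was 0.44 (adjusted p = 0.014). At 65 Gy and 6 weeks the adjusted p rose above the limit without any 1 of libraries 3136, 3137, 3138 and 3140 (0.0733 to 0.152). All 4 changes stayed below the fold limit, with a mean effect of 1.57-fold (0.65, SE 0.10, adjusted p = 0.000132).

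Tgfbr3 (chr5:107106567-107289629) encodes betaglycan, the co-receptor that presents TGF-beta 2 in particular and also binds inhibin. Its level in controls was 101, 139 and 149 CPM at 2 weeks and 152, 179 and 171 CPM at 6 weeks. At 2 weeks it was 77.3, 84.8 and 77.1 CPM after 65 Gy and 65.2, 73.3 and 42.9 CPM after 75 Gy. By 6 weeks it was 92.2 and 90.8 CPM after 65 Gy and 84.1, 72.9 and 75.0 CPM after 75 Gy. The 11 irradiated libraries all lay below the 6 controls, and library 3134 was the lowest. Tgfbr3 fell 2.14-fold at 75 Gy and 2 weeks (log2 fold change -1.10, SE 0.17, adjusted p = 0.000445) and 2.16-fold at 75 Gy and 6 weeks (-1.11, SE 0.17, adjusted p = 0.000216). After 65 Gy the log2 fold changes of -0.70 (SE 0.17, adjusted p = 0.0149) at 2 weeks and -0.87 (SE 0.19, adjusted p = 0.00784) at 6 weeks passed the adjusted p alone. The former no longer did so without any 1 of libraries 3127, 3128, 3129 and 3131 (0.0556 to 0.0611), nor the latter without 3138 or 3140 (0.07 and 0.0667). The call at 75 Gy and 2 weeks rests on the fold limit, since the value was -0.90 (adjusted p = 0.000615) without library 3134 and -0.99 (adjusted p = 0.00265) without control 3128. Between the lowest control and the other controls of 2 weeks there was a wide gap, and without that control (3126) the mean effect was -1.01 against -0.95 with it. A gene annotated on the same strand shares 4.88% of the exon length of Tgfbr3.

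Tgfbi (chr13:56609586-56639359) encodes a secreted matrix protein named for its induction by TGF-beta, which binds collagens and integrins. It was at 73.3, 72.2 and 85.3 CPM in controls of 2 weeks and 88.6, 81.1 and 85.1 CPM in those of 6 weeks. The levels of 2 weeks were 245, 217 and 204 CPM after 65 Gy and 149.9, 189.7 and 522 CPM after 75 Gy. Those of 6 weeks were 133 and 148 CPM after 65 Gy and 144, 150.3 and 166 CPM after 75 Gy. All 11 irradiated libraries were above all 6 controls, and the SD at 75 Gy and 2 weeks was 204 CPM (n = 3), with library 3134 the highest. Tgfbi rose 2.88-fold at 65 Gy (1.53, SE 0.32, adjusted p = 0.00654) and 3.73-fold at 75 Gy (1.90, SE 0.32, adjusted p = 0.000837) at 2 weeks. Without library 3134 the log2 fold change at 75 Gy was 1.14, with an adjusted p of 1.72e-05. At 6 weeks the values were 0.73 (SE 0.34, adjusted p = 0.168) at 65 Gy and 0.86 (SE 0.31, adjusted p = 0.0431) at 75 Gy, neither of them called. The adjusted p at 75 Gy and 6 weeks was no longer under the limit when any 1 of the 6 libraries compared was left out, at 0.0616 to 0.108.

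**Figure D2:**
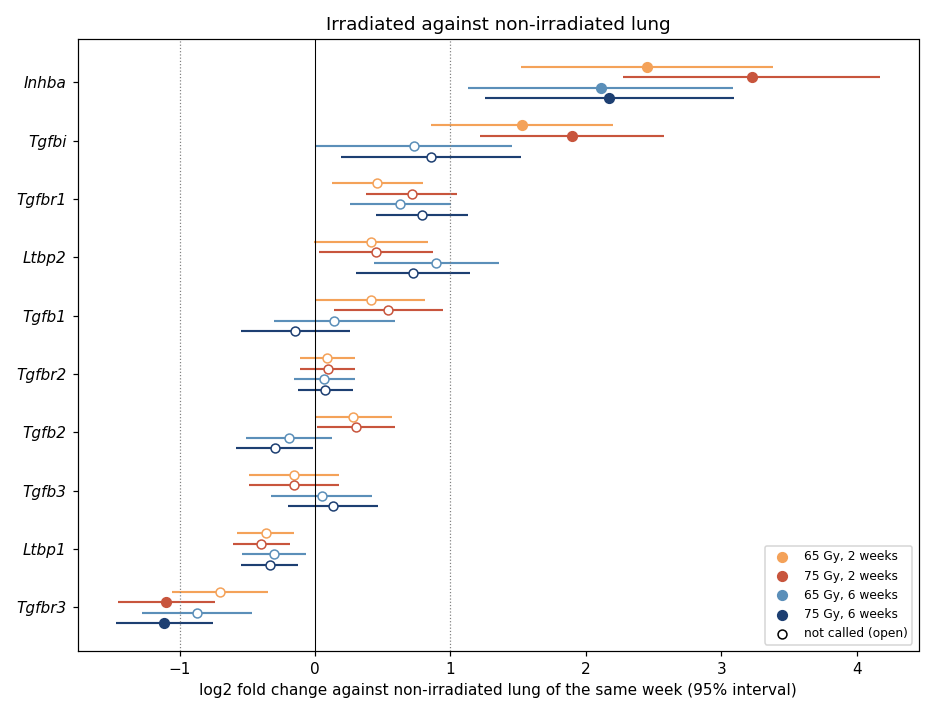
Log2 fold change of each of the 10 genes (rows) against non-irradiated lung of the same week (horizontal axis) with its 95% interval, for 65 Gy and 75 Gy at 2 and 6 weeks; filled points were called, open points were not, and dotted lines mark the fold limit. Inhba is filled at all 4 comparisons, between 2.11 and 3.23, and Tgfbr3 lies to the left of 0 in all 4.

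The 2 doses were compared directly at each week. Of all genes tested, 0% were called between 75 Gy and 65 Gy at either week, and 0 of the 10 described here were. At an unadjusted p under 0.05 there were 1570 genes (7.12%) at 2 weeks, 1 of them a gene of the set (Tgfbr3), and 1431 (6.49%) at 6 weeks, 0 of them in the set. DESeq2 and edgeR's exact test also called 0 of the 10. For Inhba the 75 Gy libraries of 2 weeks were higher by 0.78 on the log2 scale with a 95% interval of -0.073 to 1.62 (adjusted p = 0.696), which was 0.021 (adjusted p = 0.993) without library 3134, and at 6 weeks the difference was 0.064 (-0.89 to 1.02). Tgfbi differed by 0.37 (-0.28 to 1.03, adjusted p = 0.762) at 2 weeks, a direction that turned to -0.39 without library 3134, and by 0.13 (-0.61 to 0.86) at 6 weeks. For Tgfbr3 the log2 difference of 75 Gy from 65 Gy was -0.40 at 2 weeks (-0.75 to -0.043, adjusted p = 0.693) and -0.24 at 6 weeks (-0.64 to 0.15). Without library 3134 the difference of Tgfbr3 at 2 weeks was -0.20 (adjusted p = 0.724). These intervals are wide enough to hold differences of more than the fold limit for Inhba and Tgfbi, so the doses were not shown to act alike.

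Between controls of 6 and 2 weeks, 0 of the 10 genes were called, against 0.576% of all genes, with an unadjusted p of 0.0182 for Tgfb3 and 0.0417 for Tgfbr3, the 2 of the 10 under 0.05, against 15.5% of all genes. The effect of irradiation at 6 weeks was also set against that at 2 weeks in 1 model. For 75 Gy, 0 of the 10 were called against 0.254% of all genes, and for 65 Gy 0 against 0.0136%. The unadjusted p was under 0.05 for 3 of the 10 at 75 Gy and for 1 at 65 Gy, against 16.1% and 8.65% of all genes. As log2 differences, the 75 Gy effect at 6 weeks minus that at 2 weeks was -1.05 for Tgfbi (SE 0.44, adjusted p = 0.263), -1.05 for Inhba (SE 0.60, adjusted p = 0.392) and -0.69 for Tgfb1 (SE 0.27, adjusted p = 0.237). Without library 3134 these differences were -0.29 (adjusted p = 0.396), -0.30 (adjusted p = 0.78) and -0.41 (adjusted p = 0.381), and without control 3127 that of Inhba was -1.62 (adjusted p = 0.19). That Tgfbi was called at 2 weeks and not at 6 weeks is therefore not shown to be a difference between the stages.

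The 3 called genes varied together over the libraries. They were called for a difference between irradiated and control lung, and that difference enters r over all 17 libraries. Pearson r of log2 CPM over the 17 libraries was 0.922 between Tgfbi and Inhba, -0.888 between Tgfbr3 and Inhba and -0.872 between Tgfbi and Tgfbr3. Within the 11 irradiated libraries these values were 0.920, -0.871 and -0.800. The points share libraries and their scaling, and library 3134 is an end point of each pair. Of all genes tested, Slc11a1 (a metal transporter of macrophage phagosomes, r = 0.981), Hif1a (the oxygen-regulated transcription factor, 0.979) and Slc7a8 (an amino acid transporter, 0.978) were most like Tgfbi over the 17 libraries. Ltbp4, another latent TGF-beta binding protein gene, was most like Tgfbr3 (0.981), followed by Xpc (a DNA damage sensor, 0.979) and Sec14l4 (0.978). For Inhba the most alike were Sgpl1 (sphingosine phosphate lyase, 0.966), Slc19a2 (a thiamine transporter, 0.963) and Gas2l3 (0.962). Within the 11 irradiated libraries r was 0.944 to 0.964 for the genes named with Tgfbi, 0.916 to 0.962 with Tgfbr3 and 0.744 to 0.940 with Inhba. Within the 6 controls it was 0.694 to 0.910, 0.965 to 0.992 and 0.548 to 0.960 in that order.

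Markers of other cell types differed in the same libraries. The summed level of 10 macrophage markers was 8798 to 13961 CPM in irradiated libraries of 2 weeks against 5032 to 10528 CPM in controls, and 11075 to 14676 against 4409 to 4877 CPM at 6 weeks. The number of them called higher was 6 at 75 Gy at each week, and 6 and 7 at 65 Gy at 2 and 6 weeks. The shares of all genes called higher were 5.67% and 7.28% at 75 Gy (2 and 6 weeks) and 3.47% and 4.34% at 65 Gy. In control 3126, whose macrophage sum of 10528 CPM exceeded all 3 libraries of 65 Gy at 2 weeks, Tgfbi was at 73.3 CPM and Inhba at 0.974 CPM, within the controls for both genes. That is a single library, and its summed level of alveolar epithelial markers was also the highest of the controls, at 29543 CPM. A summed level is weighted to its most abundant genes and is not a count of cells. The summed level of 8 endothelial markers was 3988 to 4773 CPM in the 6 controls and 1747 to 3193 CPM in the 11 irradiated libraries, lowest in library 3134. Such a separation was not particular to endothelial markers. Summed airway epithelial markers (5 genes) were 14053 to 17767 CPM in controls and 5913 to 12386 CPM in irradiated libraries, also lowest in 3134. Of the endothelial markers, 1 was called lower at 75 Gy and 2 weeks, 6 at 75 Gy and 6 weeks, and 1 at each week after 65 Gy. The shares of all genes called lower were 2.07% and 3.13% at 75 Gy (2 and 6 weeks) and 0.88% and 0.943% at 65 Gy. In the mean effect 7 of the 8 endothelial markers were lower with the adjusted p alone, against 21% of all genes. By the same rule 5 of 9 fibroblast, 3 of 4 mesothelial, 6 of 7 neutrophil and 1 of 5 airway markers were also lower. In the fibroblast and airway lists 1 marker each was higher. Summed fibroblast markers (9 genes) were 1137 to 1317 CPM in controls and 631 to 932 CPM in irradiated libraries at 2 weeks, and 980 to 1098 against 843 to 978 CPM at 6 weeks, with 1 of them called, higher at 75 Gy and 6 weeks. No macrophage, endothelial or fibroblast marker was at 0 in any library. The part of these cell types in the changes of Inhba, Tgfbi, Tgfbr1, Tgfbr3 and Ltbp1 was not tested.

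**Figure D3:**
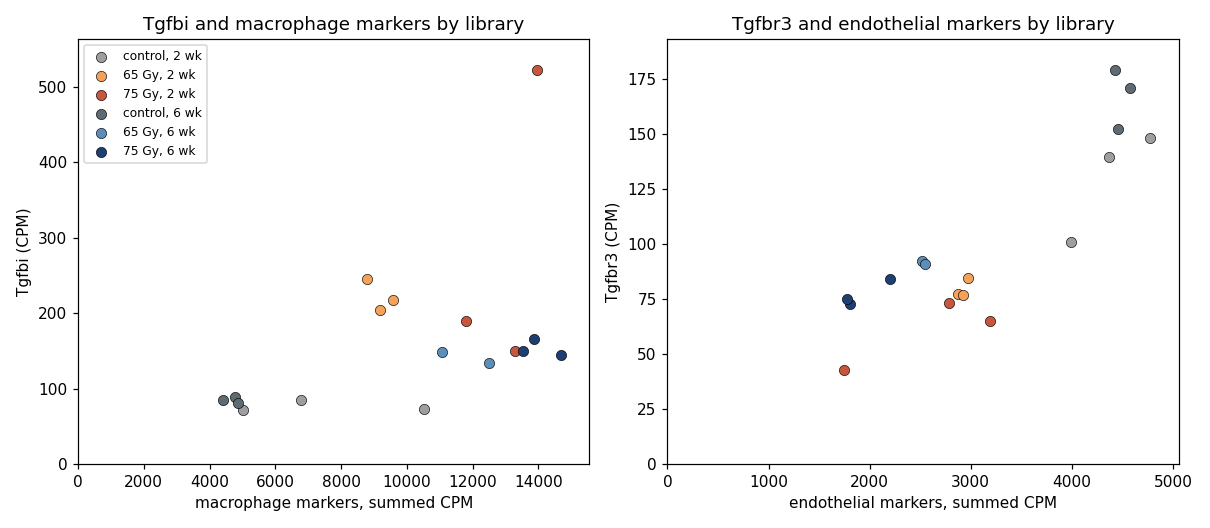
Level of Tgfbi against the summed level of 10 macrophage markers (left) and of Tgfbr3 against that of 8 endothelial markers (right), in CPM, with 1 point per library coloured by group. All irradiated libraries lie above all controls for Tgfbi, and control 3126 (10528 CPM of macrophage markers) lies furthest right of the controls. The controls of Tgfbr3 lie to the upper right of all irradiated libraries.

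Genes around the 10 were taken from lists of the pathway, and their mean effect over the 4 irradiated groups is described here, with the statistics in brackets those of the mean effect. Over all genes, 6.85% were called higher and 1.64% lower by the mean effect, and 20.6% were higher and 21% lower with the adjusted p alone. Of 19 genes of latency and activation, 1 rose and 2 fell by the mean effect, and 8 were higher and 6 lower with the adjusted p alone (median log2 fold change 0.18, against 0.0077 over all genes). Mmp9, a gelatinase able to release latent TGF-beta and abundant in neutrophils, fell from 66.6 ± 20.7 CPM (SD, n = 3) in controls of 2 weeks to 19.2 ± 5.63 after 65 Gy and 13.0 ± 0.930 after 75 Gy (-1.89, SE 0.18, adjusted p = 2.16e-06 for the mean effect). Beside it, 5 of 7 neutrophil markers were called lower at 2 weeks after each dose. At 6 weeks Mmp9 averaged 61.3 CPM in controls, 18.3 CPM after 65 Gy (n = 2) and 19.1 CPM after 75 Gy. Of the neutrophil markers, 1 was called lower at that week after each dose. Their summed level at 6 weeks was 406 to 689 CPM in controls, 112 to 323 after 65 Gy and 191 to 309 after 75 Gy. The part of these markers in the change of Mmp9 was not tested. Ltbp4, which unlike Ltbp2 carries latent TGF-beta, fell from 582 ± 159.9 to 233 ± 87.1 CPM at 75 Gy and 2 weeks and from 749.7 ± 62.4 to 288 ± 85.4 CPM at 6 weeks (-1.16, SE 0.16, adjusted p = 3.98e-05). Mmp14, a membrane-bound protease, rose from 103 ± 25.96 to 239 ± 110.1 CPM at 75 Gy and 2 weeks (1.03, SE 0.15, adjusted p = 0.000101). By comparison, 3 and 5 genes of this list were called at 75 Gy (2 and 6 weeks), and 1 and 5 at 65 Gy, against 7.74%, 10.4%, 4.35% and 5.28% of all genes. Without library 3134 the log2 fold change of Mmp14 at 75 Gy and 2 weeks was 0.78 (adjusted p = 0.00614), under the fold limit, and its mean effect was under that limit without any 1 of libraries 3126, 3127 and 3134 (0.92 to 0.99).

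Other receptors and co-receptors were mostly lower. Of 13 genes, 1 rose and 1 fell by the mean effect, and 10 were lower and 1 higher with the adjusted p alone, with a median log2 fold change of -0.58. Eng encodes endoglin, the co-receptor of endothelial cells, and it fell from 619.7 ± 38.4 to 280.4 ± 83.0 CPM at 75 Gy and 2 weeks and from 583 ± 24.9 to 211 ± 51.2 CPM at 6 weeks (-1.13, SE 0.12, adjusted p = 3.72e-06). Without library 3134 its log2 fold change at 75 Gy and 2 weeks was -0.92 (adjusted p = 0.0011), short of the fold limit. Nrp1, a co-receptor for semaphorins and VEGF that also binds TGF-beta, was lower within the fold limit (-0.58, SE 0.06, adjusted p = 4.66e-06). Cd109, a surface protein that binds TGF-beta and dampens its signal, was the exception and rose from 3.03 ± 0.248 to 7.72 ± 2.66 CPM at 75 Gy and 2 weeks and from 2.81 ± 0.325 to 7.997 ± 1.44 CPM at 6 weeks (1.31, SE 0.15, adjusted p = 1.03e-05). The endothelial markers above were lower in the same libraries as Eng, and their part in it was not tested.

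Of 6 other activin and follistatin genes, 4 passed the filter, and 1 was called by the mean effect. Fst, whose product follistatin binds and neutralizes activin, rose from 2.77 ± 0.578 to 10.7 ± 3.16 CPM at 75 Gy and 6 weeks and from 2.47 ± 0.743 to 11.5 ± 8.26 CPM at 75 Gy and 2 weeks (1.70, SE 0.27, adjusted p = 0.000161 for the mean effect). Its libraries at 75 Gy and 2 weeks were at 5.01, 8.72 and 20.8 CPM, and without the highest, 3134, the log2 fold change there was 1.47 (adjusted p = 0.0057) against 2.22 with it. After 65 Gy it was at 5.83 ± 1.19 CPM at 2 weeks (adjusted p = 0.0681) and 7.19 ± 1.42 CPM at 6 weeks (n = 2, adjusted p = 0.0501) and was not called. Inhbb, the beta B subunit of activin, had a mean effect of 0.23 (SE 0.07, adjusted p = 0.0118), and Fstl3, another activin antagonist, had one of -0.16 (SE 0.05, adjusted p = 0.0163). Among 10 genes of bone morphogenetic proteins (BMPs) and their antagonists, 2 rose and 1 fell. Nog, the BMP antagonist noggin, was low throughout, with 0.327 ± 0.0839 CPM in controls and 1.68 ± 0.360 CPM after 75 Gy at 2 weeks (2.08, SE 0.16, adjusted p = 3.35e-07), and Bmp6 fell from 174 ± 8.03 to 41.9 ± 10.01 CPM at 75 Gy and 6 weeks (-1.59, SE 0.16, adjusted p = 4.11e-06). Bmp2 was lower within the fold limit (-0.76, SE 0.10, adjusted p = 3.63e-05). The other gene of this list that rose was Grem1, the antagonist gremlin (2.03, SE 0.44, adjusted p = 0.00188), which was named after its values were seen.

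Of 16 SMADs and their regulators, 0 rose and 2 fell by the mean effect, and 10 were lower and 2 higher with the adjusted p alone (median -0.31). Smad6, an inhibitory SMAD of the BMP branch, fell from 180.1 ± 32.9 to 72.03 ± 34.1 CPM at 75 Gy and 2 weeks and from 162 ± 16.8 to 46.8 ± 13.6 CPM at 6 weeks (-1.38, SE 0.18, adjusted p = 2.66e-05). Its libraries 3132, 3133 and 3134 of 75 Gy and 2 weeks were at 104.8, 74.6 and 36.7 CPM. Smad9, a receptor-activated SMAD of the same branch, fell by the mean effect too (-1.10, SE 0.13, adjusted p = 1.63e-05), which without control 3127 was -0.9996 and not called, and Smurf2, a ubiquitin ligase that degrades SMADs and receptors, was lower within the fold limit (-0.71, SE 0.08, adjusted p = 8.89e-06).

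Of 19 genes known as targets of TGF-beta, 4 rose and 0 fell by the mean effect, 10 were higher and 1 lower with the adjusted p alone, and the median was 0.43. Cdkn1a, the p21 cell cycle inhibitor that is also a target of p53, rose from 99.9 ± 15.6 to 476 ± 56.1 CPM at 75 Gy and 2 weeks and from 48.7 ± 6.82 to 258 ± 31.7 CPM at 6 weeks (2.27, SE 0.11, adjusted p = 1.94e-09). Timp1, an inhibitor of matrix proteases, rose 5.14-fold by the mean effect (2.36, SE 0.29, adjusted p = 1.66e-05), and Fn1, the matrix protein fibronectin, rose from 636 ± 40.6 to 1580.3 ± 84.2 CPM at 75 Gy and 6 weeks (1.36, SE 0.09, adjusted p = 7.52e-08). Bhlhe40, a circadian repressor, was higher within the fold limit (0.93, SE 0.11, adjusted p = 1.11e-05), as was Col3a1, a fibrillar collagen (0.64, SE 0.12, adjusted p = 0.000669). At 2 weeks irradiated and control libraries overlapped for Col3a1. Between controls of 6 and 2 weeks, 2 of the 19 were called, against 0.576% of all genes. Both were lower at 6 weeks, Col3a1 (-1.01, SE 0.19, adjusted p = 0.0175) and Cdkn1a (-1.04, SE 0.15, adjusted p = 0.00381). The fourth gene that rose was Comp, a cartilage matrix protein (1.01, SE 0.32, adjusted p = 0.0212), named after its values were seen. Its mean effect was not called without any 1 of libraries 3126, 3128, 3130, 3133, 3134, 3135, 3136, 3140 and 3142 (0.81 to 0.99), and that of Bhlhe40 was called without control 3128 (1.003, adjusted p = 1.9e-05).

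**Figure D4:**
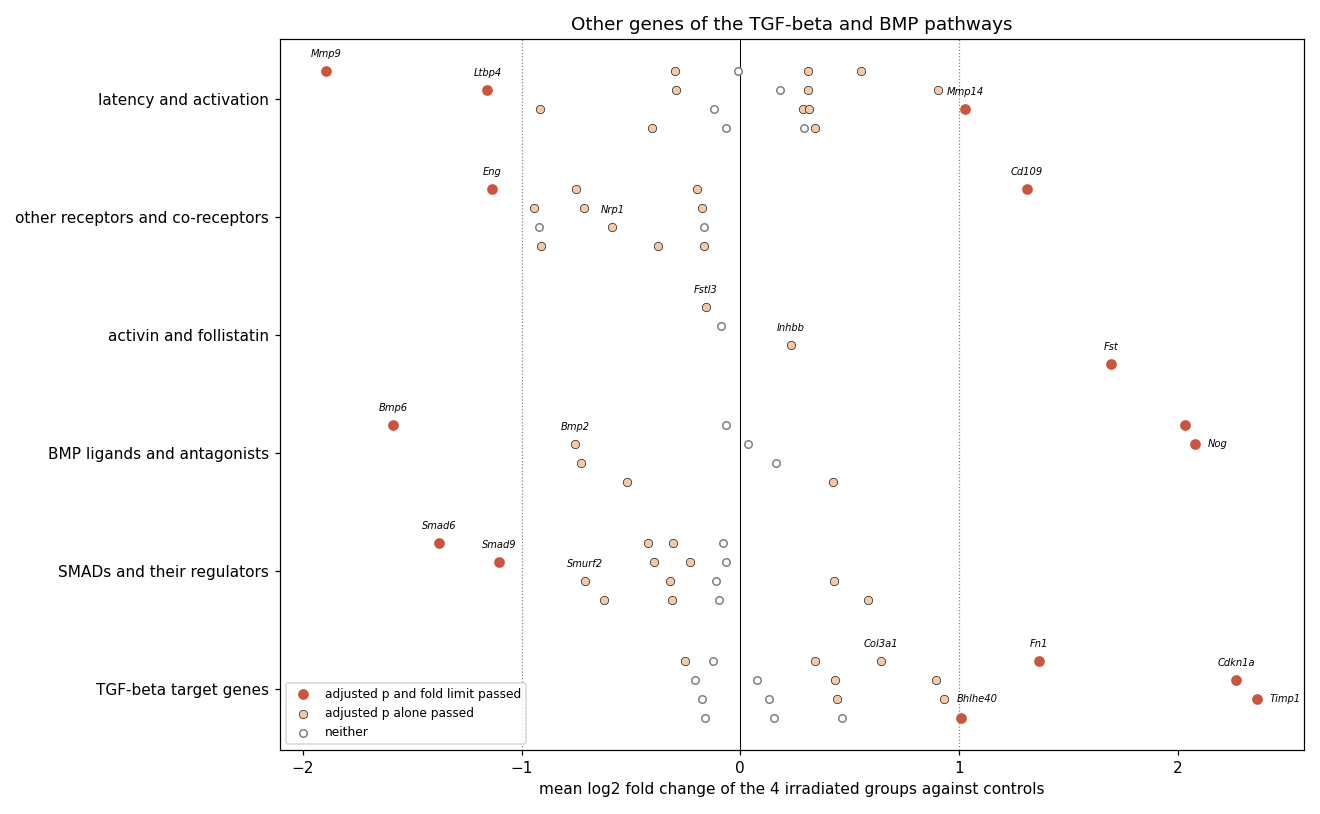
Mean log2 fold change of the 4 irradiated groups against controls (horizontal axis) for each tested gene of the 6 pathway lists (rows, spread vertically for legibility). Filled dark points passed the adjusted p and the fold limit, pale points the adjusted p alone, and open points neither. The other receptors and the SMADs lie mostly to the left of 0 (medians -0.58 and -0.31), and the target genes reach 2.36 for Timp1.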

How the data were processed

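Per the study's methods, Trimmomatic, HISAT2 (to GRCm38.p6) and StringTie took the paired reads from trimming to expression estimates. The deposited values are whole-number read counts per gene, not normalized, and how they were made from the StringTie output and whether strand was used is not given in the sources used here. A single edgeR 4.0.16 model (R 4.3.3) with a coefficient for each group held all 17 libraries. The function filterByExpr (minimum count 10, minimum total 15) kept 22052 genes, libraries were scaled by TMM, and the quasi-likelihood F test was adjusted over all of these genes by the method of Benjamini and Hochberg. Standard errors were derived from the F statistic, and log2 CPM for correlations had a prior count of 2. The method was tested on simulated data. Alternatives included other filters and scaling factors, edgeR's exact test, DESeq2 1.42.0 and leaving out each library. The 10 genes, the lists and the tests were chosen with earlier results of these data known. From each pathway list the 3 genes with the smallest p in the mean effect were named (6 of the targets, 1 of which is not reported here), and for each called member the 3 genes with the highest r. Gene positions and promoter windows are from RefSeq and exon lengths from the GENCODE vM21 annotation, all of GRCm38. The third 65 Gy library of 6 weeks was not analysed here.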

Additional observations from a re-analysis of the deposited data

Results flagged for a closer look

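Tgfb2 was flagged because its irradiated libraries lay on opposite sides of the control mean at the 2 stages. How many of all genes meet this rule was not counted. At 2 weeks all 6 irradiated libraries lay above the mean of their controls, and at 6 weeks all 5 lay below it. Of these 5, 65 Gy library 3140 was at 44.3 CPM, just under the control mean of 44.7 CPM and above control 3135 at 42.8 CPM. Without library 3138 the log2 fold change at 65 Gy and 6 weeks was -0.00041. Relative to 2 weeks, the effect on Tgfb2 at 6 weeks was -0.60 on the log2 scale for 75 Gy (SE 0.19, unadjusted p = 0.00631, adjusted p = 0.177 by edgeR's quasi-likelihood test) and -0.47 for 65 Gy (SE 0.20, unadjusted p = 0.0322, adjusted p = 0.553). Neither passed the adjustment over all genes, and of all genes 16.1% (75 Gy) and 8.65% (65 Gy) had an unadjusted p under 0.05 here. The value for 65 Gy was -0.29 without library 3138, -0.67 without 3140 and -0.30 without control 3126, and that for 75 Gy ranged from -0.74 (without control 3128) to -0.44 (without control 3126). The doses share their controls, and control 3126, at 29.96 CPM, was the lowest of the 17 libraries for Tgfb2.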

How the results depend on the processing

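Without the limit on the fold change, 5 and 6 of the 10 genes were called at 75 Gy (2 and 6 weeks), 4 and 4 at 65 Gy and 6 by the mean effect. With an unadjusted p, 1 gene (Tgfbi) was called for the change of the 75 Gy effect between weeks. In the other settings run (other filters, RLE and upper-quartile factors, only the groups compared, edgeR's exact test and DESeq2) the numbers called were those of the report. The exact test could not be run for the mean effect or the differences between weeks, nor could the mean effect be fitted from the groups compared alone. With each library left out in turn, the number at 65 Gy and 6 weeks ranged from 0 to 1, that at 75 Gy and 2 weeks from 2 to 3, and that of the mean effect from 2 to 3 (with Tgfbr3 at -1.01 without control 3126). With 1 library left out of the 65 Gy group of 6 weeks, the remaining one was assumed to vary like the other groups. Small changes turned direction in this way. Tgfb3 ranged from -0.31 to 0.018 at 75 Gy and 2 weeks, from -0.32 to 0.018 at 65 Gy and 2 weeks, from -0.024 to 0.13 at 65 Gy and 6 weeks and from -0.10 to 0.055 in the mean effect, and Tgfb2 from -0.047 to 0.094 in the mean effect. Tgfbi ranged from -0.39 to 0.68 between the doses at 2 weeks, and Inhba from -0.12 to 0.20 between the doses at 6 weeks. Of 2560 recomputed fold changes, 70 turned direction, all 70 of them for genes not called. With a prior count of 0.5, Lcp1 replaced Slc7a8 among the 3 genes most like Tgfbi, and by Spearman's rho 8 of the 9 named genes were replaced. No paired analysis was possible because the labels give no 2 libraries the same number. Groups of 2 or 3 libraries limit the precision, and Inhba had as few as 48 counts in a control library.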
